A study of Mus musculus with 2 samples.

Results

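The VEGF and angiopoietin signaling genes described here were 10 of the 33696 genes counted in both libraries. They were chosen by symbol and comprised the ligands *Vegfa*, *Vegfc*, *Angpt1* and *Angpt2*, the VEGF receptors *Kdr*, *Flt1* and *Nrp1*, the angiopoietin receptors *Tek* and *Tie1*, and the apelin receptor *Aplnr*. The study profiled dissociated abdominal aorta by droplet single-cell RNA sequencing, with 1 library for Control and 1 library for AngII+HS. Mice were male C57BL/6J, 5 months old. AngII+HS mice received angiotensin II at 1500 ng/kg/min by osmotic minipump with 0.9% NaCl and 0.2% KCl in the drinking water for 28 days, a treatment under which aneurysm forms, and Control mice received normal saline by pump over the same time. What the Control mice drank is not given in the sources used here. Each library pooled animals, but the number is given in conflicting ways, as 5 mice per sample in the design text and as 1 Control and 2 AngII+HS mice in the protocol.

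VEGF ligands signal to endothelium through receptor tyrosine kinases: *Kdr* encodes VEGFR2, the main signaling receptor for *Vegfa*, *Flt1* encodes VEGFR1, which binds the ligand tightly and signals weakly, and *Nrp1* encodes a coreceptor. Angiopoietins act on the endothelial receptor Tie2, encoded by *Tek*, where *Angpt1* from mural and stromal cells activates and quiets vessels, *Angpt2* from activated endothelium opposes it in many settings, and *Tie1* modulates the receptor. *Aplnr* encodes the G protein-coupled receptor for apelin and marks endothelium that is sprouting or venous.

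The Control library held 11448 barcodes and 86618995 UMIs, of which 10269 cells were kept at a median of 7274 UMIs. The AngII+HS library held 24804 barcodes and 117146856 UMIs, of which 19734 cells were kept at a median of 3065.5 UMIs. The barcode list recorded with each library had the length of the other library's matrix, and the 2 lists shared 67 barcodes. Cells were therefore taken by matrix column, the lists were not used, and which matrix belongs to which label rests on the submitters' record. If the matrices themselves were exchanged, every direction below would turn. Vascular smooth muscle cells (VSMCs) were 48.7% of the cells kept in Control but 3.21% in AngII+HS, while macrophages numbered 502 and 4471. Vascular endothelial cells (VECs) numbered 838 and 1203, lymphatic endothelial cells (LECs) 138 and 157, pericytes 174 and 216, and fibroblasts 2609 and 4716.

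Levels are a gene's UMIs per 1000000 UMIs of its cell type (CPM), with exact Poisson 95% intervals, and ratios are log2 of AngII+HS over Control with exact conditional binomial 95% intervals. These intervals cover counting error only. With 1 library per group there was no replicate check, so no test was made and a difference is between these libraries. UMI counts given per gene cannot separate the splice forms of *Vegfa* or the soluble form of *Flt1*. T and B cells together serve as the measure of free RNA for each gene, on the assumption that these cells express little of it. For *Vegfa* and *Nrp1* this measure is uncertain, as given below. Median depth there was 3770 UMIs in Control and 2128.5 in AngII+HS.

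*Vegfa*, the main ligand for blood vessel growth, was present in many cell types of the Control aorta and was highest in macrophages of the AngII+HS aorta. In Control, fibroblasts held 85.8 CPM (80.1 to 91.8), VECs 75.7 CPM (67.8 to 84.4), pericytes 63.6 CPM (51.4 to 78.0), LECs 63.1 CPM (49.9 to 78.8) and VSMCs 61.9 CPM (59.7 to 64.0). The intervals of VECs, pericytes and LECs overlapped, and macrophages lay far lower at 8.54 CPM (5.14 to 13.3), which was 19 UMIs. In AngII+HS, macrophages held 193 CPM (187 to 199) from 3831 UMIs, a 22.6-fold difference and a log2 ratio of 4.50 (3.85 to 5.23). Dendritic cells held 122 CPM (109 to 136) there, against 19.7 CPM from 3 UMIs in Control. The level in T and B cells was 17.2 CPM (9.85 to 28.0) in Control and 42.5 CPM (36.9 to 48.6) in AngII+HS. In AngII+HS, T cells alone held 65.3 CPM and B cells 13.8 CPM. T cells gave 179 of the 209 UMIs pooled there, so for *Vegfa* the pooled level is an uncertain measure of free RNA.

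The share of macrophages with a *Vegfa* UMI was 2.79% in Control and 37.6% in AngII+HS. With each cell thinned to 1000 UMIs the shares were 0% and 15.1%, against 1.33% and 3.18% of T and B cells. The AngII+HS level was high in more than a single kind of macrophage. The cluster led by *Arg1* and *Ccl24* held 243 CPM (233 to 253) and the cluster led by *C1qa* and *C1qc* held 162 CPM (154 to 170.2), against 9.13 CPM from 3 UMIs and 8.79 CPM from 16 UMIs in Control. The *Arg1*-led cluster had 41 Control and 2083 AngII+HS cells, so different clusters made up the macrophages of the 2 libraries. The 5 macrophage markers summed to 5660 CPM in Control and 4185 CPM in AngII+HS macrophages, with 1 of 5 higher, and the 5 fibroblast markers to 105 and 459 CPM, with 5 of 5 higher. Their part in the *Vegfa* level was not tested. Among macrophages, 2 members passed 200 UMIs: *Vegfa* was higher by a log2 ratio over 0.5 (as were 22.6% of 7912 genes) and *Nrp1* was lower (as were 23.5%). *Vegfa* reached this minimum only through AngII+HS, with 19 UMIs in Control.

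Structural cells held less *Vegfa* in AngII+HS. The VSMC level was 25.8 CPM (21.8 to 30.2), a log2 ratio of -1.26 (-1.51 to -1.03), and the VEC level was 41.4 CPM (36.5 to 46.8), a log2 ratio of -0.87 (-1.11 to -0.63). In fibroblasts the level was 65.9 CPM (62.9 to 69.0), a log2 ratio of -0.38. In VSMCs the 4 VSMC markers summed to 27238 CPM in Control and 38806 CPM in AngII+HS, with 3 of 4 higher, the 5 fibroblast markers to 1566 and 3854 CPM, with 4 of 5 higher, and the 5 macrophage markers to 8.12 and 40.5 CPM, with 4 of 5 higher. Their part in the VSMC ratios was not tested. VSMCs, VECs, pericytes and LECs of AngII+HS no longer lay above the pooled T and B cell level of their library, which they did in Control. That pooled level came mostly from T cells. Against the B cells of AngII+HS, at 13.8 CPM (9.28 to 19.6), the intervals of all these types lay above. Fibroblasts were mixed, from 31.6 CPM in the cluster led by *Dio2* and *Fst* to 128 CPM (116 to 142) in a cluster led by *Prg4* and *Timp1* that had cells in AngII+HS alone.

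**Figure D1:**
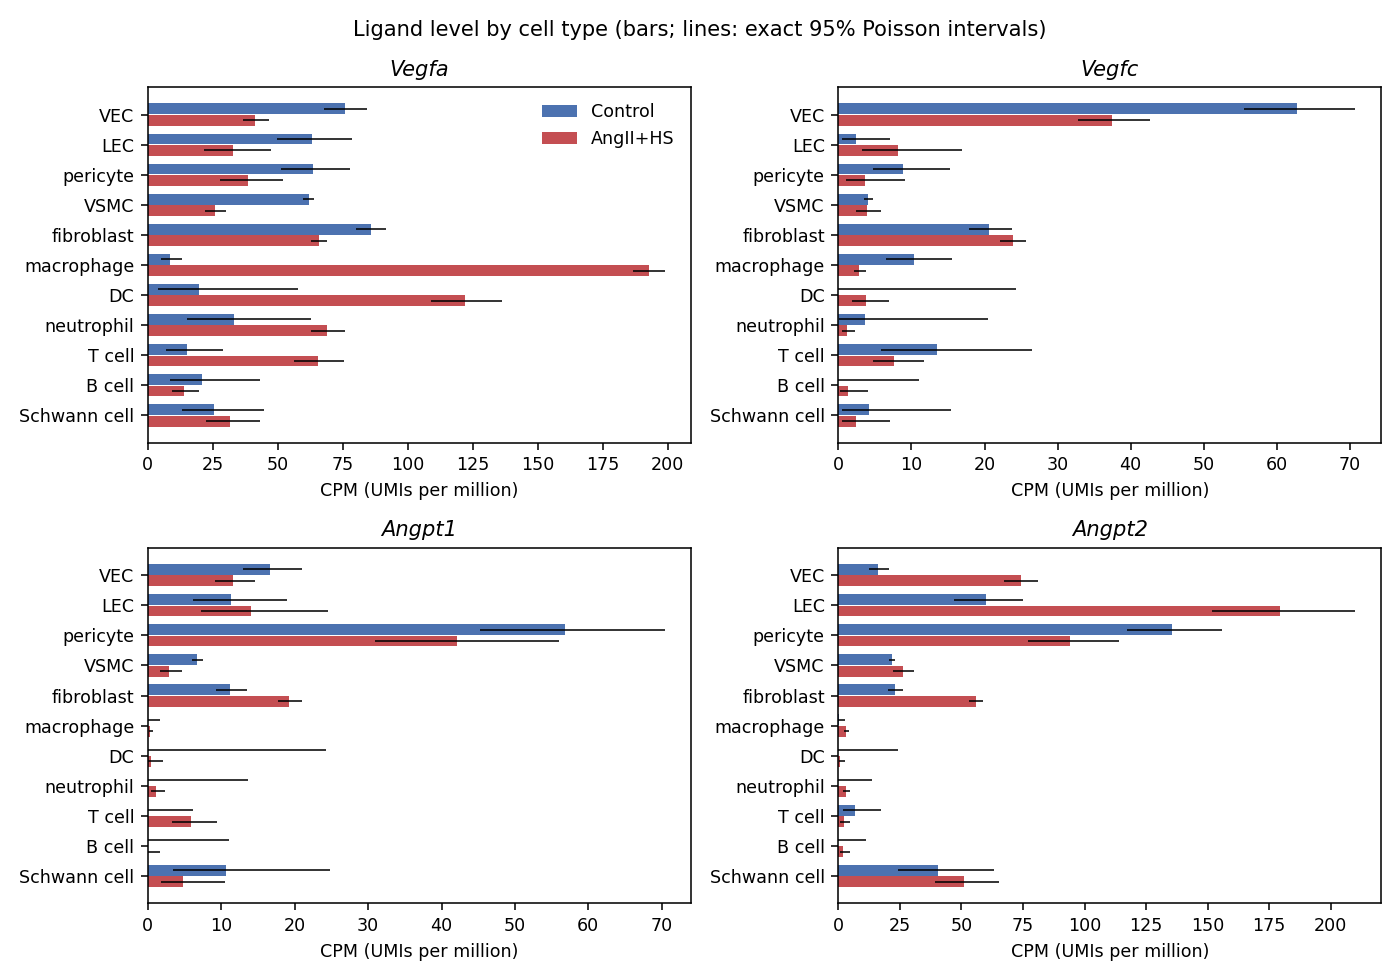
Level of *Vegfa*, *Vegfc*, *Angpt1* and *Angpt2* in each cell type, in CPM, for the Control and AngII+HS libraries, with lines for exact Poisson 95% intervals. *Vegfa* in macrophages sits at 8.54 CPM in Control and 193 CPM in AngII+HS, while *Angpt2* in VECs sits at 16.2 and 74.0 CPM.

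The cells that supplied the *Vegfa* UMIs of each library differed with both level and cell mix. VSMCs held 67.3% of them in Control and 2.07% in AngII+HS, against 69.7% and 7.32% of all UMIs. Macrophages held 0.394% and 52.1%, and fibroblasts 17.4% and 25.2%. Of all UMIs, macrophages held 2.95% and 24.7% and fibroblasts 13.0% and 34.9%. The AngII+HS share of macrophages in *Vegfa* UMIs was 25.9% with double the number of doublets removed, where the *Arg1*-led cluster lost its name. It was 73.1% with the T and B cell level subtracted, a level that came mostly from T cells. Over the 11 cell types found in both libraries the level was 63.3 CPM in Control and 92.9 CPM in AngII+HS. Over all kept cells it was 64.0 and 91.2 CPM. Setting the AngII+HS levels on the Control mix of cell types gave 38.1 CPM over these types, below Control. Setting the Control levels on the AngII+HS mix gave 50.9 CPM, also below Control.

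*Vegfc*, the ligand of lymphatic growth that also binds *Kdr*, was highest in VECs in both libraries. The VEC level was 62.8 CPM (55.6 to 70.7) in Control and 37.5 CPM (32.8 to 42.6) in AngII+HS, a log2 ratio of -0.74 (-1.003 to -0.49). Fibroblasts held 20.7 CPM (17.9 to 23.7) and 23.8 CPM (22.1 to 25.7), a ratio of 0.21 whose interval, -0.02 to 0.44, included no difference. VECs and fibroblasts were the only types above T and B cells (8.62 and 4.88 CPM) in either library. In Control macrophages, 20 of the 23 *Vegfc* UMIs came from 1 cell. Fibroblasts supplied 27.0% of the *Vegfc* UMIs in Control and 62.7% in AngII+HS, and VECs 36.4% and 21.7%. Of all UMIs, fibroblasts held 13.0% and 34.9% and VECs 5.75% and 7.68%. Within VECs the subcluster led by *Dkk2* and *Alpl* was highest, at 236 and 210 CPM.

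*Angpt1*, the activating ligand of Tie2, was highest in the cells named pericytes, whose markers are given with *Angpt2*. The largest share of its UMIs lay in VSMCs in Control and in fibroblasts in AngII+HS. Pericytes held 56.8 CPM (45.2 to 70.4) in Control and 42.1 CPM (30.9 to 56.0) in AngII+HS, a log2 ratio of -0.43 whose interval, -0.98 to 0.10, included no difference. Fibroblasts held 11.3 CPM (9.25 to 13.6) and 19.3 CPM (17.7 to 20.9), a log2 ratio of 0.77 (0.48 to 1.08). VSMCs held 6.75 CPM (6.06 to 7.49) and 2.88 CPM (1.68 to 4.61), the latter from 17 UMIs. VSMCs supplied 53.3% of *Angpt1* UMIs in Control and 2.32% in AngII+HS, and fibroblasts 16.6% and 73.8%. Of all UMIs, VSMCs held 69.7% and 7.32% and fibroblasts 13.0% and 34.9%. With equal weight per cell the Control share of fibroblasts in *Angpt1* was 32.0%. Among fibroblasts of AngII+HS, the level ran from 11.9 CPM in the *Dio2*-led cluster to 26.2 CPM in the cluster led by *Comp* and *Fmod* and 39.8 CPM (32.9 to 47.6) in the *Prg4*-led cluster. T and B cells held 0 UMIs in Control and 3.25 CPM in AngII+HS.

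*Angpt2*, the context-dependent antagonist of *Angpt1*, was highest in the cells named pericytes in Control and was higher in VECs and fibroblasts of AngII+HS. VECs held 16.2 CPM (12.6 to 20.4) in Control and 74.0 CPM (67.4 to 81.1) in AngII+HS, a 4.58-fold difference and a log2 ratio of 2.20 (1.83 to 2.58). The 5 VECs of highest count carried 38.6% of the 70 UMIs in Control and 18.6% of the 458 UMIs in AngII+HS. Pericytes held 135 CPM (117 to 156) and 94.01 CPM (76.9 to 114), a ratio in the other direction of -0.53 (-0.88 to -0.18). In the same cells the 5 pericyte markers summed to 2256 and 5234 CPM, with 5 of 5 higher in AngII+HS, the 4 VSMC markers to 28985 and 19057 CPM, with 0 of 4 higher, and the 5 fibroblast markers to 1063 and 2181 CPM, with 5 of 5 higher. The part of these shifts in the pericyte ratios was not tested. In VSMCs the 5 pericyte markers summed to 5646 and 6239 CPM and the 4 VSMC markers to 27238 and 38806 CPM. The summed pericyte markers were thus no higher in the cells named pericytes than in VSMCs, and the name is uncertain. LECs held 59.9 and 179 CPM, but 90 of the 153 AngII+HS UMIs lay in 1 cell, and without the cell of highest count in each library the levels were 52.6 and 73.8 CPM. VSMCs held 21.8 CPM (20.5 to 23.1) and 26.1 CPM (22.1 to 30.6). T and B cells held 4.31 and 2.03 CPM.

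In fibroblasts the *Angpt2* level was 23.0 CPM (20.1 to 26.2) in Control and 55.9 CPM (53.1 to 58.7) in AngII+HS, a log2 ratio of 1.28 (1.08 to 1.49). The *Dio2*-led cluster held 41.0 and 137 CPM and the *Comp*-led cluster 19.8 and 62.6 CPM. The cluster led by *Ptx3* and *Sfrp4* stayed low, at 6.33 CPM (4.17 to 9.20) and 4.62 CPM (3.39 to 6.14). The 5 pericyte markers summed to 529.98 CPM in Control fibroblasts and 970.28 CPM in AngII+HS fibroblasts, with 4 of 5 higher, and their part in this result was not tested. Fibroblasts supplied 12.7% of *Angpt2* UMIs in Control and 58.8% in AngII+HS, VECs 3.94% and 17.1%, and VSMCs 64.2% and 5.75%. Of all UMIs, fibroblasts held 13.0% and 34.9%, VECs 5.75% and 7.68%, and VSMCs 69.7% and 7.32%. With equal weight per cell the Control share of fibroblasts in *Angpt2* was 23.4%, and with thinned cells 23.8%. Of the 7 members that passed 200 UMIs in fibroblasts, *Angpt1* and *Angpt2* were higher by a log2 ratio over 0.5 (as were 10.0% of 10155 genes) and *Tek* was lower (as were 16.1%). *Angpt1* reached this minimum only through AngII+HS, with 110 Control UMIs, and *Tek* only through Control, with 131 AngII+HS UMIs. The median ratio of these 7 was -0.00, against -0.12 over all genes.

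**Figure D2:**
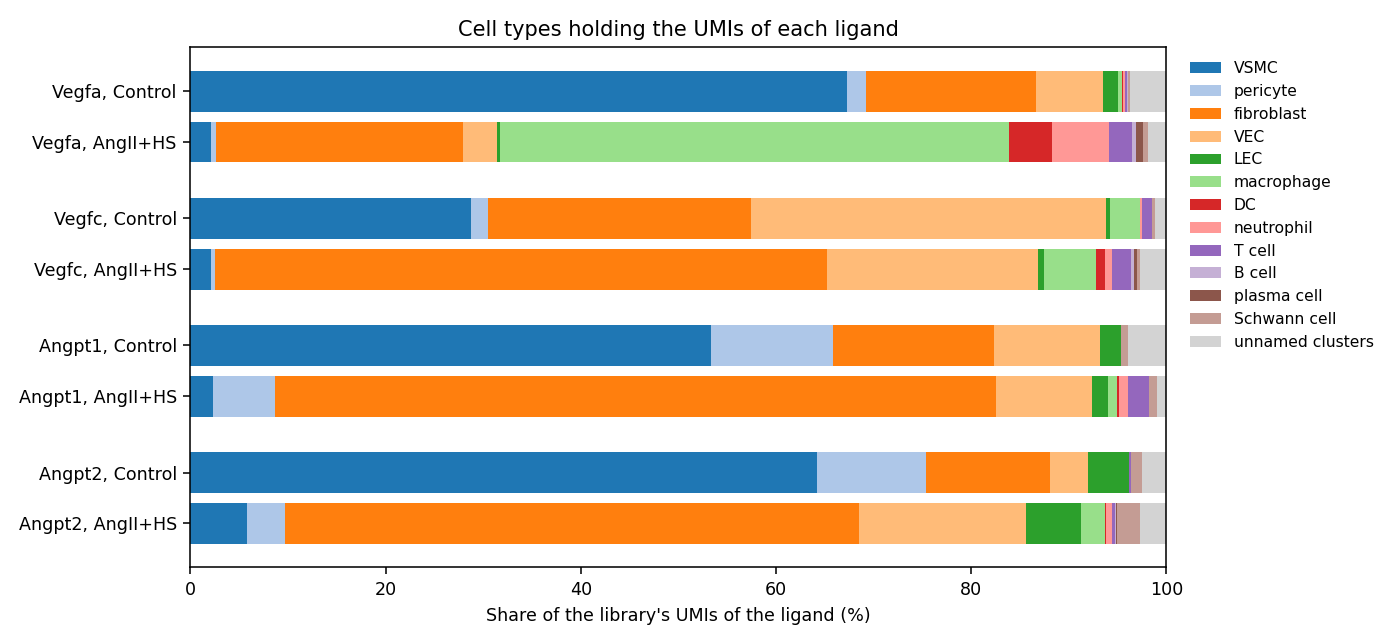
Share of each ligand's UMIs, in percent of a library, that came from each cell type in Control and in AngII+HS. VSMCs hold 67.3% of *Vegfa*, 53.3% of *Angpt1* and 64.2% of *Angpt2* in Control and at most 5.75% of these 3 ligands in AngII+HS. They hold 69.7% of all UMIs in Control and 7.32% in AngII+HS.

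The receptors other than *Nrp1* were largely endothelial by share of UMIs, with *Flt1* also present in mural and stromal cells. VECs had the highest *Nrp1* level but held 19.6% of its UMIs in Control and 25.9% in AngII+HS. VSMCs held 41.0% and 1.64% of them, and fibroblasts 29.8% and 53.6%. Of all UMIs, VECs held 5.75% and 7.68%, VSMCs 69.7% and 7.32%, and fibroblasts 13.0% and 34.9%. LECs held 2.43 and 5.86 CPM of *Nrp1*, from 3 and 5 UMIs. *Kdr*, *Tek* and *Tie1* lay above 100 CPM in VECs and LECs of both libraries. *Kdr* was higher in LECs (446 and 552 CPM) than in VECs in both libraries, *Tek* was higher in VECs, and the *Tie1* intervals of VECs and LECs overlapped. *Aplnr* belonged to VECs, which held 94.3% of its UMIs in each library, and all 16 of its UMIs in LECs of AngII+HS came from 1 cell. T and B cells held at most 5.69 CPM of *Kdr*, *Flt1*, *Tek*, *Tie1* and *Aplnr* in either library, and 16.2 and 26.8 CPM of *Nrp1*. T cells gave all 15 of these *Nrp1* UMIs in Control and 119 of 132 in AngII+HS. In AngII+HS, T cells alone held 43.4 CPM of *Nrp1* and B cells 5.96 CPM. For *Nrp1* too, the pooled level is an uncertain measure of free RNA.

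In VECs, *Kdr*, the signaling VEGF receptor, was higher in AngII+HS. Its level was 209 CPM (195 to 223) in Control and 364 CPM (349 to 379) in AngII+HS, a log2 ratio of 0.80 (0.69 to 0.92). The share of VECs with a *Kdr* UMI was 26.7% and 54.4%, and 14.1% and 32.7% after thinning, against 0% and 0.347% of T and B cells. *Nrp1*, the coreceptor, held 274 CPM (258 to 289.9) and 405 CPM (389.5 to 421), a ratio of 0.57 (0.47 to 0.67). *Flt1* was the most abundant receptor by UMIs, at 1071 and 1299 CPM, with a smaller ratio of 0.28 (0.23 to 0.33). UMIs are counted at 3′ ends, so levels were not scaled by gene length. Intronic reads may have been counted and priming can differ between transcripts, so levels of different genes may not compare exactly.

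The angiopoietin receptor moved the other way. *Tek* held 401 CPM (382 to 419.9) in Control VECs and 239.9 CPM (228 to 252) in AngII+HS VECs, a log2 ratio of -0.74 (-0.84 to -0.64). LECs gave a like value, 201 and 108 CPM, a ratio of -0.90 (-1.26 to -0.55). *Tie1*, its partner receptor, held 197 and 177 CPM in VECs, a ratio of -0.16 (-0.29 to -0.03), and in LECs its ratio of 0.17 had an interval, -0.13 to 0.47, that included no difference.

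*Aplnr* had the largest ratio of the members in VECs. Its level was 19.2 CPM (15.3 to 23.8) from 83 UMIs in Control and 171 CPM (161 to 182) from 1060 UMIs in AngII+HS, an 8.94-fold difference and a log2 ratio of 3.16 (2.84 to 3.50). The share of VECs with a UMI was 6.92% and 25.5%, and 2.01% and 10.1% after thinning. Over 13 alternatives the log2 ratio of *Aplnr* in VECs ran from 2.23 to 3.24, and was lowest without the *Akr1b8*-led subcluster described below.

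Of the 10 members, 9 passed 200 UMIs in VECs, *Angpt1* having 72 UMIs in each library. Of these, *Kdr*, *Nrp1*, *Angpt2* and *Aplnr* were higher by a log2 ratio over 0.5, as were 16.9% of 6812 genes. The minimum was on both libraries together. *Angpt2* and *Aplnr* reached it only through AngII+HS, with 70 and 83 UMIs in Control. *Vegfa*, *Vegfc* and *Tek* were lower, as were 11.4%, and *Flt1* and *Tie1* lay between. The median ratio of the 9 was 0.28, against 0.06 over all genes. With VECs thinned to 1000 UMIs each, the 3 lower members had ratios of -0.45, -0.50 and -0.50, so that none lay past the limit. With predicted doublets kept, *Kdr* and *Nrp1* had ratios of 0.46 and 0.29, so that 2 members were higher in place of 4, while *Tek* (-1.03) and *Aplnr* (2.81) stayed past it. The share of all genes was not recomputed for thinned VECs or with doublets kept. The 5 fibroblast markers summed to 221.6 CPM in Control VECs and 552.7 CPM in AngII+HS VECs, with 5 of 5 higher, the 5 macrophage markers to 16.9 and 64.1 CPM, and the 5 VEC markers to 5691 and 5127 CPM, with 3 of 5 higher in AngII+HS. The part of these transcripts in the ratios was not tested.

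**Figure D3:**
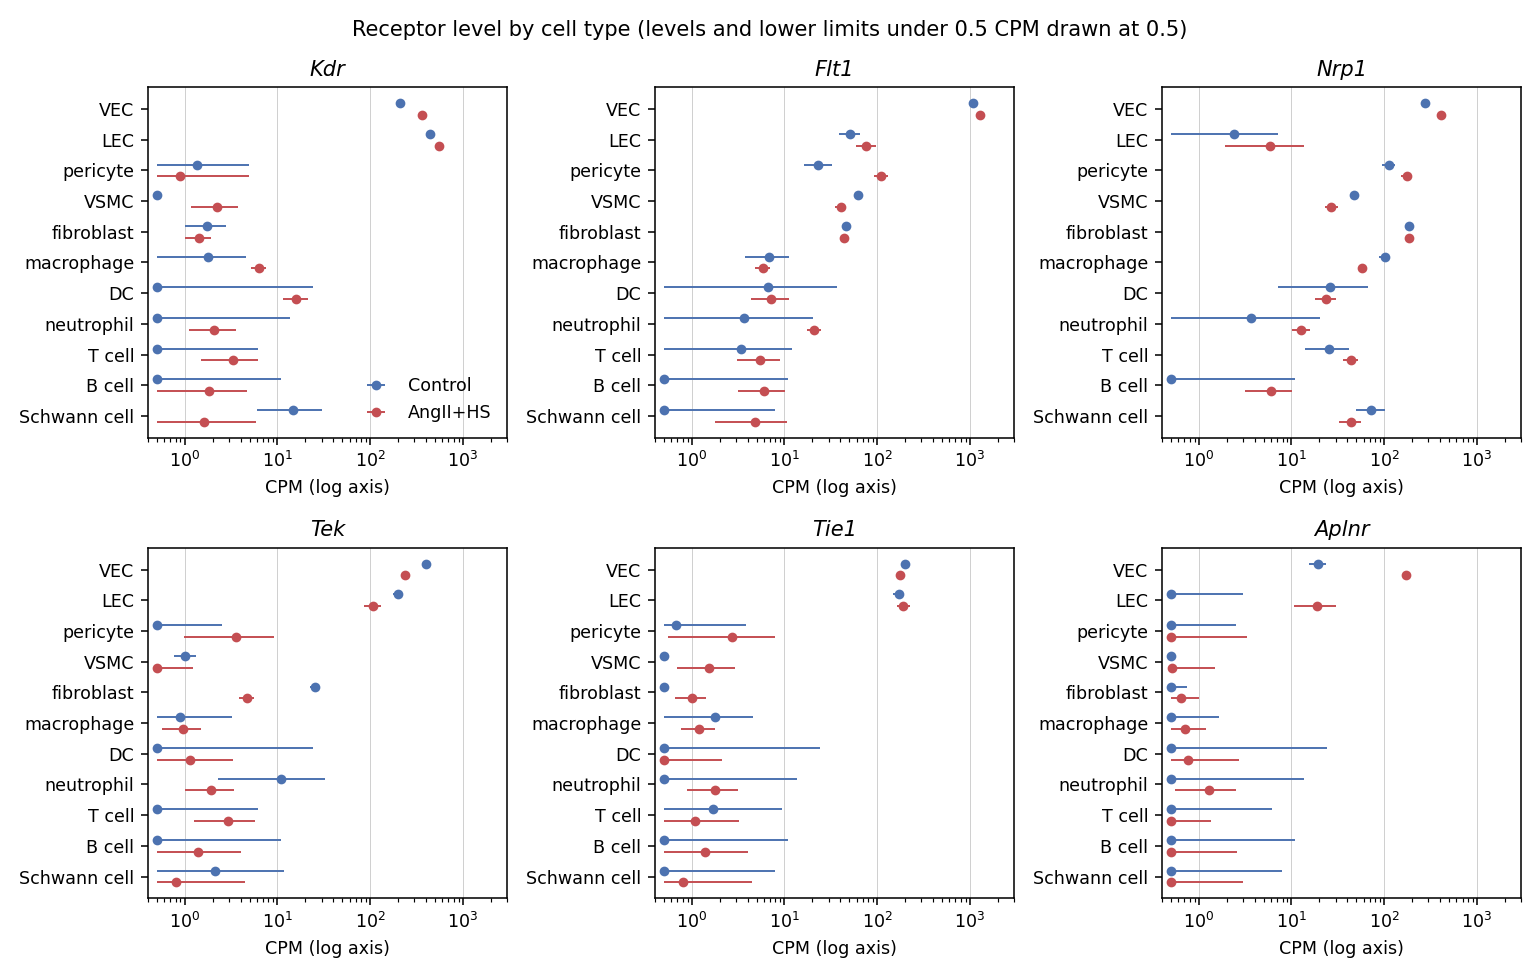
Level of *Kdr*, *Flt1*, *Nrp1*, *Tek*, *Tie1* and *Aplnr* in each cell type, in CPM on a log axis, for both libraries, with lines for exact Poisson 95% intervals and values under 0.5 CPM drawn at 0.5. In VECs, *Kdr* sits at 209 CPM in Control and 364 CPM in AngII+HS and *Tek* at 401 and 239.9 CPM.

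Because the VEC ratios of *Kdr* and *Tek* had opposite signs, the 250 bases upstream of their RefSeq starts are shown with those of *Flt1* and *Vegfa* (build GRCm38.p6, all 5′ to 3′ on the gene's strand). Capitals mark the ETS core GGAA, bound by a family of endothelial transcription factors, and ACGTG. The latter is a form of the HIF core of the hypoxia response. Each was searched on both strands, and the form GCGTG was not searched. The windows are chr5:75978456-75978705 on the minus strand for *Kdr*, chr4:94739039-94739288 on the plus strand for *Tek*, chr5:147726012-147726261 on the minus strand for *Flt1* and chr17:46032378-46032627 on the minus strand for *Vegfa*.
Kdr: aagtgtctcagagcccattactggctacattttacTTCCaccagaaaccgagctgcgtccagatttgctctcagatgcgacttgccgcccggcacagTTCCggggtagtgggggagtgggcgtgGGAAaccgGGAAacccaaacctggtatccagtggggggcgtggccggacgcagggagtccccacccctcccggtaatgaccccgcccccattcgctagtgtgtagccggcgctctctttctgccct
Tek: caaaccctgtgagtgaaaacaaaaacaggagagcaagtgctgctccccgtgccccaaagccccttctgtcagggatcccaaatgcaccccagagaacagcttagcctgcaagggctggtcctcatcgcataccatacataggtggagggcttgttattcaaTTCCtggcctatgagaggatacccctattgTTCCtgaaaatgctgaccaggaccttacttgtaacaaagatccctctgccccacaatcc
Flt1: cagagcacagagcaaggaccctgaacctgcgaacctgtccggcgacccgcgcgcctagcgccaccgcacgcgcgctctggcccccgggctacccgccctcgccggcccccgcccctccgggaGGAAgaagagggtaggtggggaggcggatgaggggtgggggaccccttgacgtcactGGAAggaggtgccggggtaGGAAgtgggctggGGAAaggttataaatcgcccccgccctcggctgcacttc
Vegfa: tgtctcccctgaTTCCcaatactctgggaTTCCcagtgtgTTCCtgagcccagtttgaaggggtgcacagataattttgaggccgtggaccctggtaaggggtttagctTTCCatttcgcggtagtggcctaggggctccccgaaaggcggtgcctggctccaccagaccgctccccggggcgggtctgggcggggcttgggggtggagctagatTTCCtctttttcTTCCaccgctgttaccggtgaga
The ETS core had 4 matches in *Kdr*, 2 in *Tek*, 4 in *Flt1* and 6 in *Vegfa*. The form ACGTG of the HIF core had 0 in each of these windows. The form GCGTG, on either strand, is in the *Kdr* and *Flt1* windows and is unmarked. The table lists another *Vegfa* start, whose window at chr17:46025164-46025413 held 2 ETS core matches and 1 match to ACGTG. Over 32851 promoter windows of the same length, 93.45% held the ETS core, with a median of 3 matches, and 16.57% held ACGTG. A match describes letters and not a bound site. Of the 10 members, 7 had a window in the table, and *Angpt1*, *Angpt2* and *Aplnr* did not.

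VECs fell into 3 named subpopulations, clustered without the members, whose shares differed between the libraries. Fn1+ VECs, which have arterial and matrix genes, were 58.2% of Control and 32.3% of AngII+HS VECs. Cd36+ VECs, a capillary-like set with lipid-handling genes, were 16.8% and 36.6%, and Lrg1+ VECs, a set with venous and activation genes, were 19.9% and 28.8%. The receptors were unevenly spread among them. *Kdr* held 7.94 CPM in Fn1+, 972 CPM in Cd36+ and 170.2 CPM in Lrg1+ VECs of Control, and 35.2, 792 and 386 CPM in AngII+HS. *Flt1* followed the same order in Control, at 349.8, 3347 and 1361 CPM. *Tek* was highest in Fn1+ VECs, at 495 CPM in Control and 321 CPM in AngII+HS, and held 243 and 212 CPM in Cd36+ and 275 and 198 CPM in Lrg1+ VECs.

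Ratios within subpopulations differed from the VEC ratio for *Kdr*, *Flt1* and *Nrp1*. In Cd36+ VECs all 3 were lower in AngII+HS, at -0.30 for *Kdr*, -0.52 for *Flt1* and -0.40 for *Nrp1* on the log2 scale. In Fn1+ VECs all 3 were higher, at 2.15, 0.37 and 1.19. In Lrg1+ VECs *Kdr* had a ratio of 1.18, *Nrp1* 0.92 and *Flt1* -0.02. *Tek* was lower in Fn1+ VECs, at -0.63 (-0.76 to -0.49), and in Lrg1+ VECs, at -0.47 (-0.70 to -0.24). In Cd36+ VECs its ratio of -0.19 had an interval, -0.47 to 0.09, that included no difference. So did the ratio in Lrg1+ VECs without a subcluster described below, at -0.10 (-0.37 to 0.16).

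Setting the AngII+HS levels on the Control mix of the 3 subpopulations moved the ratios of some members more than others. The ratio over these cells was 0.91 for *Kdr* and 0.24 at the Control mix. For *Vegfa* it was -0.84 and -0.29, and for *Vegfc* -0.75 and -0.21. The ratio of *Nrp1* was 0.60 and 0.71, that of *Tek* -0.73 and -0.56, that of *Angpt2* 2.22 and 1.69, and that of *Aplnr* 3.20 and 2.39. *Flt1* changed sign, from 0.31 to -0.14. *Vegfa* and *Vegfc* were highest in Fn1+ VECs, where *Vegfa* held 106 and 88.6 CPM and *Vegfc* 86.6 and 79.7 CPM. The *Vegfa* ratio was -0.26 (-0.53 to 0.01) in Fn1+, -0.66 (-1.45 to 0.15) in Cd36+ and -0.37 (-1.38 to 0.71) in Lrg1+ VECs. All 3 intervals included no difference. The *Vegfc* ratio was -0.12 (-0.41 to 0.17) in Fn1+ and -0.89 (-2.08 to 0.34) in Cd36+ VECs. In Lrg1+ VECs it was -0.85 (-1.56 to -0.13). Without the *Akr1b8*-led subcluster described below, the *Vegfc* ratio there was -0.27, and its interval, -1.10 to 0.55, included no difference.

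**Figure D4:**
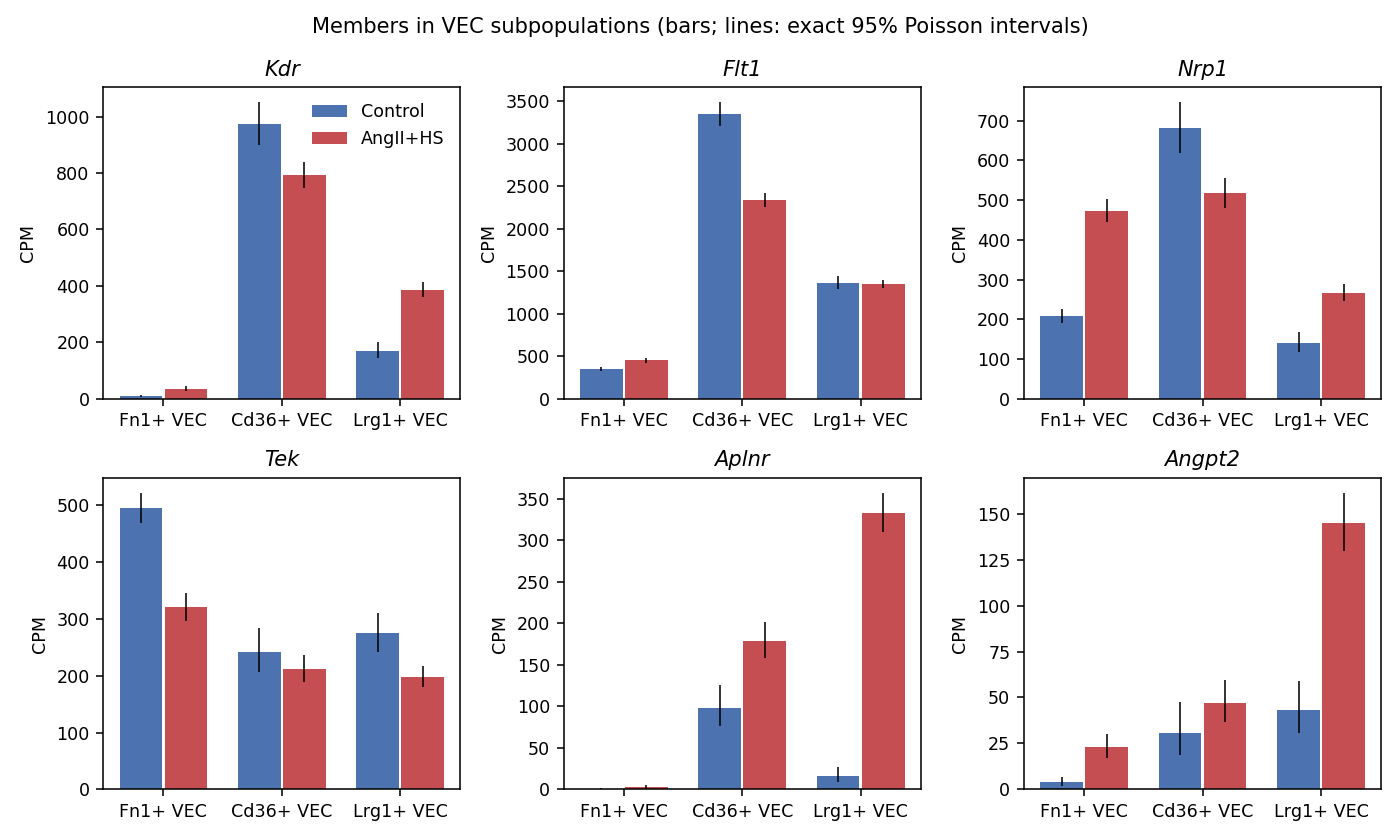
Level of *Kdr*, *Flt1*, *Nrp1*, *Tek*, *Aplnr* and *Angpt2* in Fn1+, Cd36+ and Lrg1+ VECs, in CPM, as bars for both libraries with lines for exact Poisson 95% intervals. *Kdr* in Cd36+ VECs lies at 972 CPM in Control and 792 CPM in AngII+HS, while in Lrg1+ VECs it lies at 170.2 and 386 CPM.

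*Aplnr* and *Angpt2* were highest in Lrg1+ VECs of AngII+HS, where most of their UMIs lay in a single subcluster. *Aplnr* held 15.9 CPM in Control and 332 CPM in AngII+HS there (log2 ratio 4.39), 98.3 and 178 CPM in Cd36+ VECs (0.86) and at most 2.34 CPM in Fn1+ VECs. *Angpt2* held 43.1 and 145 CPM in Lrg1+ VECs (1.75), 30.7 and 47.2 CPM in Cd36+ (0.62) and 3.78 and 23.0 CPM in Fn1+ VECs (2.60). The Cd36+ interval, -0.11 to 1.42, included no difference, and the Fn1+ ratio rested on 10 Control UMIs. A subcluster of Lrg1+ VECs led by *Akr1b8* and *Timp1*, with the cell-cycle genes *Cdk1* and *Mcm5* among its leading genes, had 3 Control and 121 AngII+HS cells. *Aplnr* itself was among its 10 leading genes. No Lrg1+ marker was among them, as in the other Lrg1+ subcluster. Its AngII+HS cells had a median of 10195 UMIs, against 4587.5 over Lrg1+ VECs of AngII+HS. The part of depth in the shares below was not tested. The *Akr1b8*-led subcluster held 22.5% of the VEC UMIs of AngII+HS, 60.1% of their *Aplnr* UMIs (637 of 1060) and 58.1% of their *Angpt2* UMIs (266 of 458). The same subcluster held 26.3% of *Kdr*, 15.0% of *Tek* and 3.52% of *Vegfa* UMIs. In Lrg1+ VECs without it, *Aplnr* held 14.1 and 136 CPM (3.27) and *Angpt2* 44.6 and 72.4 CPM (0.70). That AngII+HS level of *Aplnr* lay below the 178 CPM of Cd36+ VECs.

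**Figure D5:**
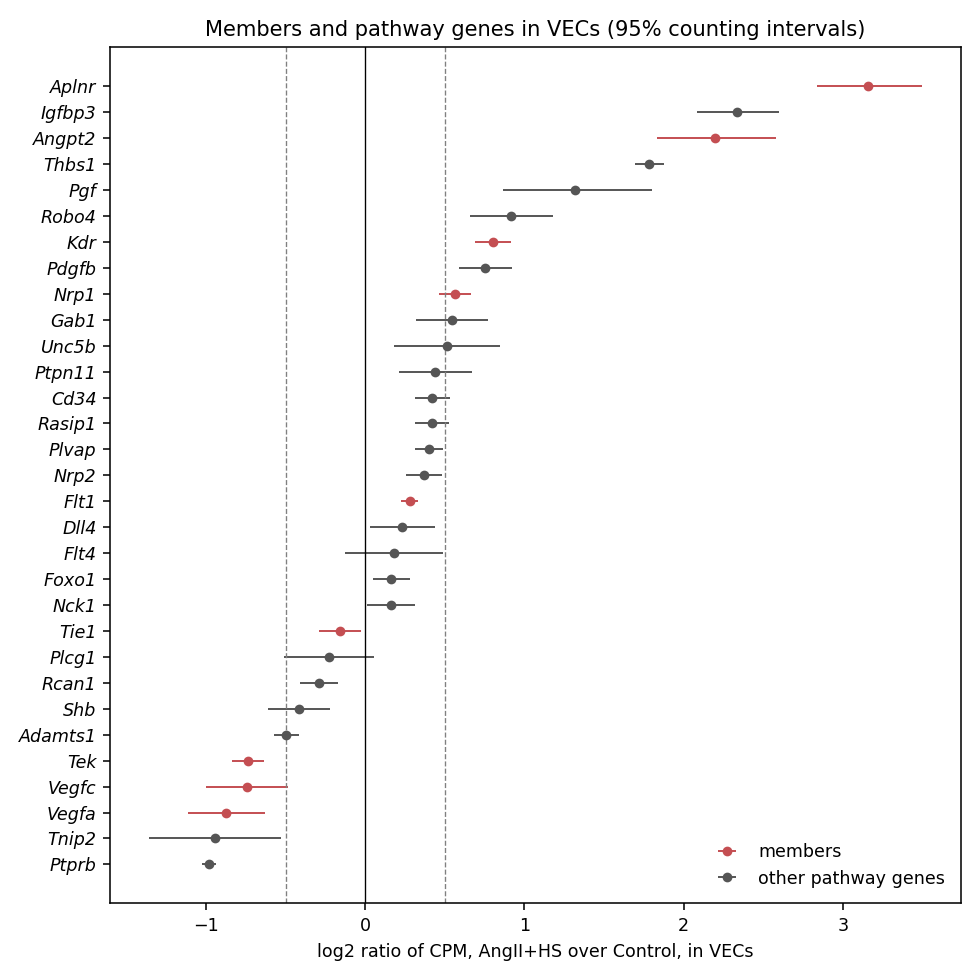
Log2 ratio of AngII+HS over Control in VECs for the 9 members and 22 pathway genes with at least 200 UMIs, with lines for 95% counting intervals and dashed lines at a ratio of 0.5 either way. *Aplnr* and *Angpt2* lie at 3.16 and 2.20 and *Tek*, *Vegfc* and *Vegfa* at -0.74, -0.74 and -0.87.

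Outside endothelium, *Tek* was lower in AngII+HS fibroblasts. Control fibroblasts held 25.4 CPM (22.3 to 28.7) from 248 UMIs and AngII+HS fibroblasts 4.65 CPM (3.89 to 5.52) from 131 UMIs, a log2 ratio of -2.45 (-2.76 to -2.14). The *Ptx3*-led cluster held most of it, at 51.8 CPM (45.2 to 59.1) in Control and 9.53 CPM (7.73 to 11.6) in AngII+HS. The 5 VEC markers summed to 97.3 CPM in Control fibroblasts and 60.4 CPM in AngII+HS fibroblasts, with 3 of 5 higher in AngII+HS, and the AngII+HS level of *Tek* did not lie above that of T and B cells.

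*Flt1* and *Nrp1* in mural and immune cells went in several directions. *Flt1* held 61.6 CPM (59.5 to 63.7) in Control VSMCs and 40.5 CPM (35.5 to 46.0) in AngII+HS VSMCs. Control VSMCs supplied 37.8% of its UMIs and 69.7% of all UMIs of that library. Pericytes held 23.3 and 110.1 CPM of *Flt1*, but 5 cells carried 52.0% of the 123 AngII+HS UMIs, and the 5 VEC markers summed to 47.2 and 86.8 CPM in the same cells. *Nrp1* held 112 and 175 CPM in pericytes (log2 ratio 0.65), 47.4 and 26.9 CPM in VSMCs (-0.82) and 101.2 and 57.6 CPM in macrophages (-0.81, -1.02 to -0.60). Fibroblasts held 185 and 184 CPM of *Nrp1*, an even level that covered 205 and 346 CPM in the *Dio2*-led cluster and 191 and 124 CPM in the *Ptx3*-led cluster. Of the 6 members that passed 200 UMIs in VSMCs, *Vegfa*, *Flt1*, *Nrp1* and *Angpt1* were lower by a log2 ratio over 0.5, as were 18.3% of 10740 genes, and 0 were higher, as were 10.5%. The median of the 6 was -0.71, against -0.03 over all genes. *Vegfa*, *Nrp1* and *Angpt1* reached the minimum only through Control, with 152, 159 and 17 UMIs in AngII+HS VSMCs.

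A list of 38 further genes of the pathways gave 22 that passed 200 UMIs in VECs, of which 7 were higher by a log2 ratio over 0.5 (as were 16.9% of all genes) and 2 lower (as were 11.4%), with a median of 0.38 against 0.06 over all genes. The highest were *Igfbp3*, a secreted binder of insulin-like growth factors, at 33.2 and 168 CPM (2.33), *Thbs1*, an antiangiogenic matrix protein, at 275 and 948 CPM (1.78), *Pgf*, a ligand of *Flt1*, at 11.8 and 29.4 CPM (1.32), and *Robo4*, an endothelial guidance receptor, at 38.8 and 73.2 CPM (0.92). *Ptprb*, the phosphatase that acts on Tie2, was the lowest, at 2336 and 1182 CPM (-0.98). *Tnip2*, an adaptor of the NF-κB pathway, held 27.0 and 14.1 CPM (-0.94), and *Adamts1* and *Shb* followed with ratios of -0.50 and -0.42. The minimum was on both libraries together, so a pathway gene could pass only through the library where it was high.

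Among the other ligands, *Vegfb* was at 15.0 and 13.1 CPM in VECs and was highest in VSMCs, at 41.2 and 29.8 CPM. *Vegfd*, a ligand of *Flt4* in lymphatics, was highest in fibroblasts at 124 and 125 CPM, and VECs held 18.2 and 5.49 CPM. *Angpt4* was highest in pericytes of Control at 27.4 CPM and in VSMCs of AngII+HS at 14.2 CPM, with 3 and 2 UMIs in VECs. *Apln*, a ligand of *Aplnr*, had 0 UMIs in Control and 39 UMIs in AngII+HS VECs, at least 9.10-fold higher against a floor of 3 UMIs in the Control library, and *Apela* had 0 in both. Of these *Apln* UMIs, 36 lay in 14 Lrg1+ VECs. The other receptors were led by LECs, where *Flt4*, the receptor of *Vegfc*, held 431 and 595 CPM and the coreceptor *Nrp2* 539.7 and 760.2 CPM. In VECs *Flt4* held 33.7 and 38.1 CPM and *Nrp2* 230.4 and 297 CPM.

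Across 22 combinations of cell type and library and 11637 genes, levels on a log2 scale were compared by Pearson's r. *Kdr* was most like *Gpihbp1* (0.955), which anchors lipoprotein lipase on capillaries, *Stap2* and *Dipk2b*, and *Tek* was most like *Hspa12b* (0.953), *Tmem158* and *Ptprb*. *Tie1* was most like *Pkn3* (0.989), *Nova2* and *Robo4*, *Aplnr* like *Nr5a2*, *Car4* and *Fam167b*, *Flt1* like *Fabp4*, *Irx3* and *Clu*, and *Nrp1* like *Gm56862*, *Pcdh19* and *Kctd12b*. Of the ligands, *Angpt2* was most like *Enpp2*, *Cdc42ep5* and *Grb10*, *Angpt1* like *Osmr*, *Enpp2* and *Adamts9*, *Vegfc* like *Plekha6*, *Prr16* and *Adh1*, and *Vegfa* like *Chmp2a* (0.675), *Scin* and *Bhlhe40*. The points of this description share 2 libraries and their depths.

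The files give these genes by Ensembl identifier as *Vegfa* ENSMUSG00000023951, *Vegfc* ENSMUSG00000031520, *Angpt1* ENSMUSG00000022309, *Angpt2* ENSMUSG00000031465, *Kdr* ENSMUSG00000062960, *Flt1* ENSMUSG00000029648, *Nrp1* ENSMUSG00000025810, *Tek* ENSMUSG00000006386, *Tie1* ENSMUSG00000033191 and *Aplnr* ENSMUSG00000044338. The same-strand gene *Lrrc55os* overlaps *Aplnr*, and its effect on the *Aplnr* counts was not tested. *Angpt1*, *Angpt2* and *Kdr* overlap *Gm17473*, *Mcph1* and *Gm32727* on the opposite strand.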

How the data were processed

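The authors deposited raw UMI counts per gene and barcode for 33696 genes, 1 matrix per library, made from 10x Genomics 3′ libraries. The file headers name Cell Ranger 8.0.1, while the study's methods name an earlier version run with default settings. The submitters' processing notes name mm10 and the study's methods a later mouse build, and 33185 of the gene IDs were found in GENCODE M39. By default Cell Ranger 8.0.1 counts intronic reads too. Columns of the matrices were used without the barcode lists.

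Barcodes entered with 500 or more UMIs, 200 or more genes and a mitochondrial share below 20%. Doublets were called with Scrublet (scanpy 1.11.5) at 0.8% per 1000 cells, which removed 1019 Control (9.03%) and 4826 AngII+HS barcodes (19.6%). Cells were clustered in Seurat 5.3.0 (R 4.3.3) on 2000 variable genes, 30 components and resolution 0.8, and VECs again on 20 components and resolution 0.4, leaving the members and 38 pathway genes out of the clustering. A cluster was named where at least 3 markers of a type were found in at least 10% of its cells and were on average higher than in the remaining cells. It stayed unnamed where another type had as many or more markers among its 10 leading genes. A cluster of low depth also stayed unnamed if no marker of its type was among these genes. In all, 504 Control and 457 AngII+HS cells stayed unnamed.

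CPM were taken from the UMIs of a type added up within a library. Shares have exact Clopper-Pearson intervals. Counts of members used genes with at least 200 UMIs in a type and a log2 ratio over 0.5 either way, a size taken from the study's methods. The minimum was set on the UMIs of both libraries added, for members and all genes alike. A gene could thus pass only through the library where it was high. The ratio code was run on simulated VEC sums, drawn as Poisson counts with 200 of 6812 genes changed, where 95.33% of intervals held the true ratio. Poisson draws meet the assumption of the intervals. The run therefore checks the code and not the coverage in these data, where UMIs can lie in few cells. Named were all members, the 4 highest and 4 lowest pathway genes in VECs, the other ligands and receptors, and for each member the 3 genes most like it over types with at least 50 cells, among genes that reached 20 CPM. *Esm1* and *Cxcr4* were chosen after their values were seen. Members and lists were chosen with earlier results of these data known. Alternatives changed the doublet call, the weight per cell, the scaling, free RNA, depth, the UMI minimum and the cells included.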

Additional observations from a re-analysis of the deposited data

Results flagged for a closer look

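For 4 members, the log2 ratio of AngII+HS to Control was past 0.5 in opposite directions in 2 cell types with at least 200 UMIs of the gene. *Flt1*, with 0.28 in VECs and -0.60 in VSMCs, was not counted: its ratios over 0.5, such as 2.24 in pericytes, rested on fewer than 200 UMIs. The difference between types was not tested, since each library is 1 sample. How many of all genes meet the same rule was not counted, so the count has no share over all genes beside it. *Vegfa* had a log2 ratio of 4.50 in macrophages and -1.26 in VSMCs. *Angpt2* had 2.20 in VECs and -0.53 in pericytes. *Angpt1* had 0.77 in fibroblasts and -1.23 in VSMCs, and *Nrp1* had 0.65 in pericytes and -0.82 in VSMCs. The name of the cells called pericytes is uncertain, as given with *Angpt2*.

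Cells left without a name also held *Vegfa*. In the cluster led by *S100a4* and *Sh3bgrl3*, the level was 60.1 CPM (19.5 to 140.3) from 5 UMIs in 39 Control cells and 195 CPM (158 to 237) from 97 UMIs in 155 AngII+HS cells, a log2 ratio of 1.69. The unnamed cluster led by *Fgf14* and *Lrrtm3* went the other way, from 93.1 CPM (173 UMIs) to 53.3 CPM (31 UMIs), a log2 ratio of -0.80 (-1.41 to -0.25).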

How the results depend on the processing

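No paired analysis was possible because each group has 1 library. Of 303 values compared under alternatives, 229 moved by less than their counting interval or stayed within 1.5 times the count. A further 70 moved by more than that, up or down, without a change of sign, and 4 reversed. With no doublets removed, 2 members were higher in VECs, 5 pathway genes were lower, *Angpt2* in fibroblasts had a log2 ratio of 0.89 and *Flt1* in VECs -0.021. With double the number of doublets removed, *Vegfa* in macrophages had 3.83, where the *Arg1*-led cluster lost its name. With equal weight per cell, *Angpt2* in fibroblasts had 1.58. With the T and B cell level subtracted, *Angpt2* in fibroblasts had 1.53 and *Vegfc* in fibroblasts 0.65, and *Vegfa* in macrophages had no value, since its Control level was at or under that of T and B cells. With cells thinned to 1000 UMIs, 0 members and 1 pathway gene were lower in VECs, *Vegfc* in fibroblasts had -0.083 and *Angpt2* in fibroblasts 1.49. With a minimum of 50 UMIs, 5 pathway genes were lower. After the data were seen, VECs were counted without the *Akr1b8*-led subcluster: 4 pathway genes were higher and 1 lower, and in Lrg1+ VECs without it *Vegfa* had 0.45 and *Flt1* 0.30. The macrophage share of *Vegfa* UMIs in AngII+HS ran from 25.9% to 73.1% over 11 alternatives, and the fibroblast shares in Control from 14.2% to 32.0% for *Angpt1* and from 11.6% to 23.8% for *Angpt2*. The cause of these moves was not tested. The share of all genes past a log2 ratio of 0.5 was computed in the main setting alone. The counts of members and pathway genes under alternatives therefore have no share over all genes beside them. Levels in the smaller types rest on few UMIs, such as 9 *Vegfa* UMIs in Control neutrophils.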

Other observations

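Among the genes of sprouting endothelium, *Esm1* had 2 UMIs in Control and 110 UMIs in AngII+HS VECs, and *Cxcr4* had 14 and 125. The *Esm1* UMIs of AngII+HS lay in few cells, with 82 in 16 Lrg1+, 17 in 7 Fn1+ and 7 in 5 Cd36+ VECs. Both were chosen after their values were seen, and neither passed the UMI minimum in VECs. Of the 22 pathway genes that did, 7 were higher (as were 16.9% of all genes), 2 lower (as were 11.4%) and 13 between. *Dll4* and *Plvap* were among these 13. *Plvap* held 1336 CPM in Control and 1012 CPM in AngII+HS Lrg1+ VECs. It held 157 and 141 CPM in Fn1+ VECs, but 43.0 and 246 CPM in Cd36+ VECs. The *Akr1b8*-led subcluster held 71.8% of the *Esm1*, 37.6% of the *Cxcr4* and 69.2% of the *Apln* UMIs of AngII+HS VECs, against 22.5% of all VEC UMIs there. *Thbs1* lay largely outside it, with 6.34% of its UMIs in the subcluster.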
